A study of Mus musculus with 2 samples.

Results

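Insm1, Nkx2-1, Foxa2, Nfib, Prox1 and St18 encode transcription factors of the lung neuroendocrine lineage. They were taken by gene symbol from the count matrices of both libraries, where each symbol named 1 row, and they are 6 of the 28692 genes counted. The measurements are single-cell RNA sequencing counts of unique molecular identifiers (UMIs, each standing for 1 captured transcript molecule) from mouse small cell lung cancer. The study compared tumours of mice given vehicle with tumours of mice given cisplatin, a platinum drug that cross-links DNA. Vehicle was saline and cisplatin was 5 mg per kg, both given every 4 days for 2 weeks, and 5000 cells per treatment were loaded. Each treatment has 1 library, so no difference between treatments could be set against a spread between mice, and no test was made.

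All mice of both libraries carried CGRPCreER/+, the Rosa26mTmG reporter and floxed tumour suppressor alleles, Rbf/f and P53f/f among them, on a strain given as mixed. CGRP is made by pulmonary neuroendocrine cells, so the CreER protein is made in cells that express that gene. The reporter turns from red to green fluorescence where Cre has acted. Live cells were sorted for green fluorescence before loading. The sources used here do not give the number of mice and tumours behind each library. The text on library preparation also names etoposide beside cisplatin for the treated tumours, while the sample labels name cisplatin only.

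INSM1 is a zinc finger repressor needed for neuroendocrine differentiation and works with the LSD1 (Kdm1a) corepressor complex. NKX2-1 is the homeodomain factor of the lung and thyroid, and FOXA2 is a forkhead factor that opens chromatin in endoderm. NFIB is amplified in a share of small cell lung cancers and is tied to metastasis in mouse models. PROX1 is a homeobox factor of lymphatic vessels, liver, lens and neural progenitors, and ST18 is a zinc finger factor of the MYT1 family found in neurons and islets.

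In the genome annotation used here (GENCODE M21, build GRCm38, the same assembly as the mm10 of the labels), Insm1 is a gene of 1 exon on the plus strand at chr2:146221921-146225020. Nkx2-1 (minus strand, chr12:56531958-56536908) and Foxa2 (minus strand, chr2:148042877-148046969) are also short, spanning 4951 and 4093 bases. Nfib (minus strand, chr4:82290173-82705750), Prox1 (minus strand, chr1:190118035-190170714) and St18 (plus strand, chr1:6487231-6860940) span 415578, 52680 and 373710 bases. Prox1 shares exonic bases with Prox1os on the opposite strand, whose count came to 36.1 CPM for vehicle and to 48.2 CPM for cisplatin (CPM is explained with the levels). Whether the counting used strand is not given in the sources used here, so reads of Prox1 and Prox1os cannot be told apart where they overlap.

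The RefSeq promoter table (build GRCm38.p6) held windows for 3 of the genes, 6 windows in all, and none for Insm1, Nfib and St18. The 250 bases before the transcript start are shown for these genes, of which Nkx2-1 and Foxa2 were higher and Prox1 lower in cisplatin. Capitals mark matches on either strand to 4 motifs: TGNNNGGGG (INSM1), TGTTTNC (forkhead), CTCAAG (NKX2-1) and TTGGC (the core bound by NFI proteins). The first window of each gene is given 5′ to 3′, from the minus strand, at chr12:56536909-56537158 for Nkx2-1, chr2:148046970-148047219 for Foxa2 and chr1:190170828-190171077 for Prox1.
Nkx2-1: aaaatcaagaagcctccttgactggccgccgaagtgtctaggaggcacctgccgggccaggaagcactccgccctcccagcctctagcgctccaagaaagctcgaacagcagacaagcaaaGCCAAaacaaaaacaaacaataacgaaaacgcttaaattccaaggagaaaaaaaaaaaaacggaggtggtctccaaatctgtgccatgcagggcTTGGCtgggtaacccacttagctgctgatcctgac
Foxa2: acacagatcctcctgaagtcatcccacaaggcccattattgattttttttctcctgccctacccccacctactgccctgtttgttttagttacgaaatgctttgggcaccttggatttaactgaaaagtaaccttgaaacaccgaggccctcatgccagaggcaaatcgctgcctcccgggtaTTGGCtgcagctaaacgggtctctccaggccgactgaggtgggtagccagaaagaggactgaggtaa
Prox1: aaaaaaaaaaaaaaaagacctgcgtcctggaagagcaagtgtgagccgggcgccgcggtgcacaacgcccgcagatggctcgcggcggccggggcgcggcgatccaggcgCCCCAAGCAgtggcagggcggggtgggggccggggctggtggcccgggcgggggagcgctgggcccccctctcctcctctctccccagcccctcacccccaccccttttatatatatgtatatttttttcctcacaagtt
The Nkx2-1 window held 2 matches to TTGGC, the Foxa2 window 1 match to TTGGC, and the Prox1 window 1 match to TGNNNGGGG. Of the 32851 windows of 250 bases in the table, 41.5% held TTGGC, 23.2% TGNNNGGGG, 17.8% TGTTTNC and 13.3% CTCAAG, so matches of this kind were common and are a description only. The other windows held 1 match to CTCAAG and 1 to TTGGC (the third Foxa2 window) and 1 match to TGTTTNC (the second Prox1 window).

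The libraries held 3726 barcodes with 32519922 UMIs (vehicle) and 4254 barcodes with 28777462 UMIs (cisplatin), with medians of 8168 and 5925 UMIs. Barcodes with at least 500 genes and at most 10% mitochondrial UMIs were kept, 3672 and 4218. Of these, 3460 (94.2%) and 4000 (94.8%) fell in clusters called neuroendocrine tumour-like, in which at least 10 of 12 markers such as Chga, Syp, Uchl1 and Resp18 were present at 100 CPM or more. These markers define the class, so its share restates the rule, and the unnamed cluster 8 also held 10 of the 12. All later values are for the tumour-like cells unless another class is named. Of the tumour-like cells, 17 in vehicle and 754 in cisplatin lay in 2 clusters with delta-like endocrine markers (Hhex, Isl1, Sst, Pnoc and Ceacam10). The libraries had 23 barcode sequences in common. Summed markers of other cell types also differed between the libraries: erythroid genes summed to 53.9 (vehicle) and 0.774 CPM (cisplatin), neutrophil genes at 23.3 and 2.88 CPM, alveolar type 2 genes at 27.1 and 185 CPM, and club cell genes at 205 and 481 CPM. A single gene made up most of the last 2 sums, Sftpc with 20.9 and 168 CPM and Scgb1a1 with 175 and 464 CPM. Their part in the values below was not tested.

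Between the libraries the 6 factors split. Insm1 was higher in cisplatin, Nkx2-1 and Foxa2 were somewhat higher, and Nfib, Prox1 and St18 were lower. Levels are CPM, the UMIs of a gene summed over the cells of a library, divided by all UMIs of those cells and scaled to the usual fixed total. Intervals are exact 95% Poisson intervals and, like all intervals here, cover counting error only, not the difference between mice. With counts not divided by transcript length, levels are compared between libraries and not between genes.

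Insm1 stood at 517 CPM (95% interval 509 to 525) in vehicle and 953 CPM (942 to 965) in cisplatin. This was 1.84-fold higher in cisplatin, a log2 ratio of 0.88 after adding 1 CPM. Its log2 ratio exceeded that of 96.7% of the 13283 genes measured, meaning genes with at least 50 UMIs over both libraries. The intervals of the libraries were far apart for Insm1, farther than for any other of the 6.

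Nkx2-1 stood at 309 CPM (303 to 315) in vehicle and 415 CPM (408 to 423) in cisplatin, 1.34-fold higher (log2 ratio 0.42). Foxa2 stood at 239 CPM (234 to 245) and 263 CPM (257 to 269.6), 1.101-fold higher (log2 ratio 0.14). Neither passed 1.5-fold, the size used here to call a difference. Both are factors of the lung endoderm, and their intervals did not overlap between the libraries.

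Nfib stood at 326 CPM (319.8 to 333) in vehicle and 235 CPM (229 to 241) in cisplatin, 1.39-fold lower and short of the call. Prox1 stood at 143 CPM (139 to 147) and 94.9 CPM (91.3 to 98.7), 1.504-fold lower, only just past 1.5-fold. St18 stood at 106 CPM (102 to 109.5) and 59.7 CPM (56.8 to 62.7), 1.77-fold lower. The log2 ratios of Nfib, Prox1 and St18 were -0.47, -0.58 and -0.82.

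**Figure D1:**
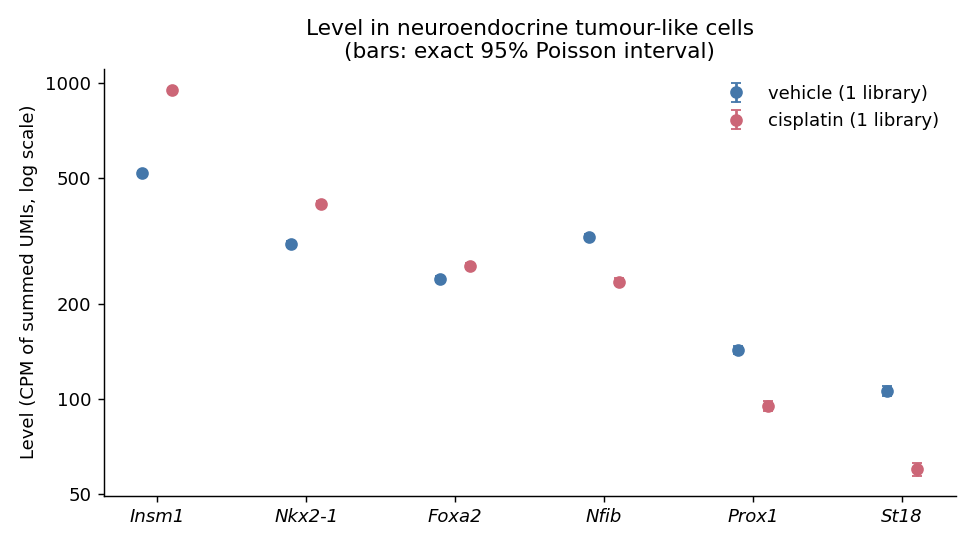
Level of the 6 factors in neuroendocrine tumour-like cells on a log axis in CPM, 1 point per library, with bars for the exact 95% Poisson interval. Insm1 is higher in cisplatin (953 against 517 CPM) and St18 lower (59.7 against 106 CPM), and no gene's intervals overlap.

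By the call of 1.5-fold, 1 of the 6 factors was higher and 2 were lower. Over all measured genes 8.07% were called higher and 21.9% lower, and the median log2 ratio was -0.17, the same as the median of the 6 factors. Relative to that all-gene median, 2 of the 6 were called higher (Insm1 and Nkx2-1) and 1 lower (St18), where 10.8% and 10.2% of all measured genes were. The same counts, 2 and 1, resulted when the sums were scaled with TMM factors (11.9% and 14.0% of all measured genes). This scaling moved the all-gene median to -0.02 and gave 1.04 for Insm1, 0.59 for Nkx2-1, 0.30 for Foxa2, -0.31 for Nfib, -0.42 for Prox1 and -0.65 for St18.

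The direction of the difference went with the length of the gene. The 3 factors that were higher in cisplatin have longest annotated transcripts of 3100 (Insm1), 2809 (Nkx2-1) and 2128 (Foxa2) bases, and the 3 that were lower have 9116 (Nfib), 7913 (Prox1) and 5892 (St18) bases. Across 13252 measured genes with a length the log2 ratio was also lower for longer genes: the smoothed trend stood at -0.05 at the length of Foxa2, -0.12 at that of Nkx2-1 and -0.16 at that of Insm1. At the lengths of Nfib, Prox1 and St18 it stood at -0.50, -0.47 and -0.39. With this trend removed, Insm1 stood at 1.04, Nkx2-1 at 0.55, Foxa2 at 0.19, Nfib at 0.03, Prox1 at -0.12 and St18 at -0.43, so that no factor was called lower and the sign of Nfib turned. Only 7.55% of all genes were called lower under this setting, so 0 of 6 is near that share. With the trend on genomic span removed instead, Insm1 kept its 0.88, Nfib stood at -0.01, Prox1 at -0.30 and St18 at -0.36, again with no factor called lower (8.51% of all genes). The source of the trend on length was not tested, and it rests on 1 library per treatment.

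**Figure D2:**
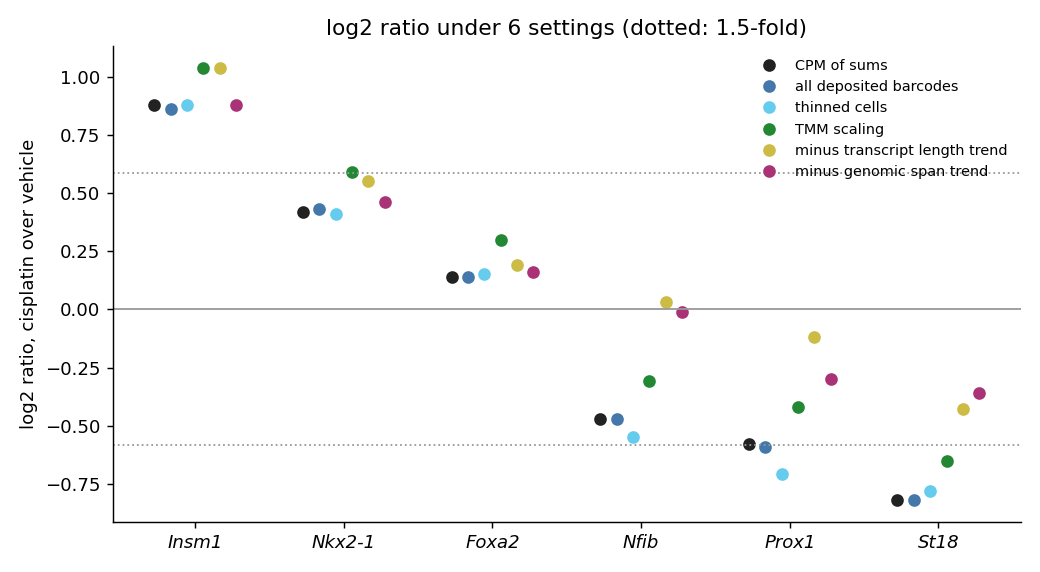
The log2 ratio of cisplatin over vehicle for each factor under 6 settings, with dotted lines at 1.5-fold. Insm1 lies above the upper line under all 6, between 0.86 and 1.04, while Nfib, Prox1 and St18 approach 0 once a length trend is removed.

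Shares of cells were compared after each cell was thinned at random to 3000 UMIs, since vehicle cells held more UMIs. This left 3322 vehicle and 3657 cisplatin cells, with 138 and 343 shallower cells left out. Insm1 had a UMI in 75.9% (exact binomial 95% interval 74.4 to 77.3) of vehicle cells and 89.3% (88.2 to 90.3) of cisplatin cells, against 93.7% and 96.4% before thinning. Cells with at least 2 Insm1 UMIs made up 45.2% and 70.7%. The share with a UMI and the share with several both differed in the direction of the level.

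After thinning, Nkx2-1 had a UMI in 58.7% (vehicle) and 68.5% (cisplatin) of cells, against 86.5% and 86.7% before thinning. Foxa2 had a UMI in 49.7% and 50.8%, and in 78.3% and 70.9% before thinning, so the difference in Foxa2 changed sign with depth: -7.37 percentage points unthinned, 1.1 points at 3000 UMIs and -0.0776 points at 5000 UMIs. Nfib had a UMI in 60.0% and 46.9%, Prox1 in 35.8% and 24.7%, and St18 in 26.3% and 16.2% of thinned cells. For these 3 factors cisplatin was lower before thinning too, at 67.4% against 86.0% for Nfib, 43.3% against 64.9% for Prox1 and 30.8% against 54.3% for St18.

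**Figure D3:**
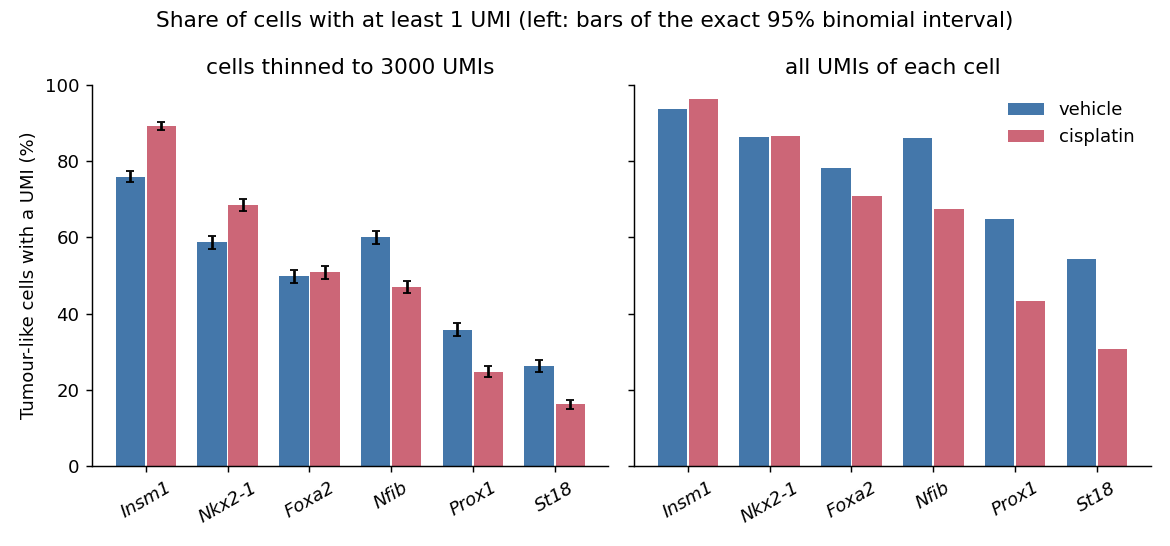
Share of neuroendocrine tumour-like cells with at least 1 UMI of each factor, by library, after thinning to 3000 UMIs (left, with exact 95% binomial intervals) and with all UMIs (right). Foxa2 is level after thinning (49.7% and 50.8%) and lower in cisplatin before it (78.3% and 70.9%).

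Free RNA can put UMIs of a gene into barcodes of cells that do not express it. A cluster of 19 barcodes with neutrophil genes in the lead (17 from vehicle, median 3382 UMIs against 8213.5 and 6011 in the tumour-like cells) should lack the 6 factors. Without thinning, 9 of the 19 had a UMI of Insm1, 7 of Nkx2-1, 5 of Foxa2, 4 of Nfib, 6 of Prox1 and 5 of St18. In CPM these barcodes stood at 169 for Insm1, 149 for Nkx2-1, 40.6 for Foxa2 and 61.0 for Nfib, below the tumour-like cells of either library. For Prox1 and St18 they stood at 94.8 and 47.4 CPM, from 14 and 7 UMIs. The 17 from vehicle stood at 85.2 and 54.2 CPM, below the 143 and 106 CPM of the vehicle tumour-like cells. The cisplatin tumour-like levels were 94.9 and 59.7 CPM. The 2 cisplatin barcodes held 3 and 0 UMIs of these genes, too few to give a background for that library. Rare markers of a different cell type were found in 29 barcodes, which may include some of the 19. Of the 29, the 23 from vehicle stood at 61.3 CPM for Prox1 and 49.8 CPM for St18. The 6 from cisplatin stood at 25.1 and 16.7 CPM, from 3 and 2 UMIs. The background for Prox1 and St18 thus rests on few UMIs, and it differed between sets of barcodes that may overlap.

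Per cell, counts were low: the mean over thinned cells ran from 0.180 UMIs (St18, cisplatin) to 2.94 UMIs (Insm1, cisplatin). The variance over the mean, which is 1 for counting noise alone, was 1.28 in vehicle and 1.75 in cisplatin for Insm1, the highest of the 6 in both libraries, though this ratio rises with the mean. It was 1.18 and 1.26 for Nkx2-1, 1.19 and 1.33 for Foxa2, 1.22 and 1.15 for Nfib, 1.103 and 1.01 for Prox1, and 1.06 and 1.04 for St18. The coefficient of variation left after subtracting counting noise does not rise with the mean in this way. It was 41.6% and 50.6% for Insm1 and highest for Foxa2, at 51.2% and 63.3%. For Prox1 it was 47.1% and 19.6%, and for St18 43.1% and 46.7%. The median cell had 1 Insm1 UMI in vehicle and 3 in cisplatin, and the highest had 9 and 18.

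Most thinned cells had a UMI of several factors. Cells with 3 of the 6 were the most frequent, at 30.6% of vehicle and 34.2% of cisplatin cells. A UMI of all 6 was found in 41 and 23 cells, and none in 37 and 22 cells. For each of the 15 pairs, the share of cells with both genes was 0.954 to 1.11 times the product of the separate shares, so presence of one factor said little about presence of another at this depth.

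Cell-to-cell correlations between the factors were weak. Over the 15 pairs, Pearson's r of log2(thinned UMIs + 1) ran from -0.019 to 0.053 in 3322 vehicle cells (median 0.021) and from -0.035 to 0.089 in 3657 cisplatin cells (median 0.016). The cells of a library share 1 sample, and thinning gave them equal depth. Insm1 and Foxa2 were the most correlated pair in both libraries, at 0.053 and 0.089, and Nkx2-1 and Nfib were the most opposed in cisplatin, at -0.035. In sparse counts such values are no finding: given how little Insm1 and Foxa2 varied beyond counting noise, a perfect link between them would give an r of about 0.19 (vehicle) and 0.33 (cisplatin).

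Pairs of other genes at similar counts were set beside them, picked after the factors' values were seen. Ccnb1 and Cdc20, which both act in mitosis, had r = 0.629 in vehicle and 0.630 in cisplatin at means of 0.328 to 0.563 UMIs. Mki67 and Top2a, 2 genes of dividing cells, had r = 0.630 and 0.432. Chga and Chgb, which encode granins of secretory granules, had r = 0.113 and 0.432. Correlations of genes at such counts could thus be seen in these cells where they were strong. Dividing the covariance by the variance beyond counting noise gave 0.25 and 0.28 for Insm1 with Foxa2, and 0.07 and -0.24 for Nkx2-1 with Nfib, for genes with a variance over mean of at least 1.1.

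**Figure D4:**
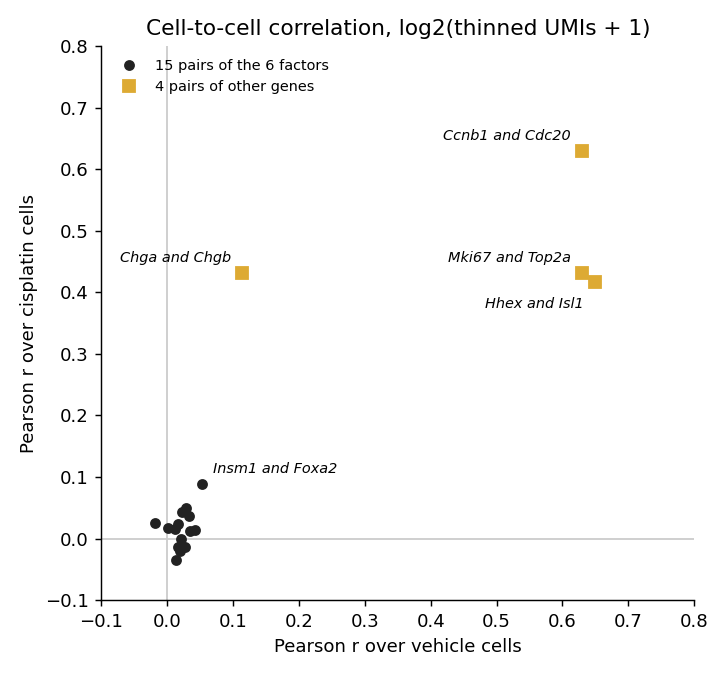
Pearson's r of log2(thinned UMIs + 1) for each gene pair over vehicle cells (horizontal axis) and cisplatin cells (vertical axis). The 15 pairs of the 6 factors (dots) all lie between -0.035 and 0.089, while Ccnb1 with Cdc20 lies at 0.629 and 0.630 (squares mark 4 pairs of other genes).

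Among 6437 other genes with a UMI in at least 5% of thinned cells of each library, those most like each factor were ranked by the lower of their 2 r values. The first 3 for Insm1 included Cd9, a tetraspanin (0.099 in vehicle and 0.086 in cisplatin), and Id4, an inhibitor of helix-loop-helix factors (0.072 and 0.097). For Nkx2-1 they included Meis2, a homeobox factor (0.090 and 0.092), and Fos (0.089 and 0.130), and for Foxa2 Col8a1 (0.063 and 0.132) and Cd9 (0.053 and 0.155). For Nfib they were Tubb5 (0.085 and 0.086), Clspn (0.090 and 0.083) and Smc2 (0.080 and 0.075), the last 2 being genes of DNA replication checkpoints and chromosome condensation. For Prox1 they were Malat1 (0.109 and 0.066), Meis2 (0.059 and 0.055) and Igfbp5 (0.075 and 0.051), and for St18 they included Tmem158 (0.075 and 0.042) and Klc1 (0.057 and 0.041). All these r are small, and they are given as an order over 3322 and 3657 cells of 1 sample each.

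Cells were also split by their cell cycle genes, with at least 2 thinned UMIs over 15 mitosis genes for the mitotic class and over 18 S-phase genes for the S class. Nfib was higher in mitotic cells than in cells of neither class in both libraries, 1.37 times in vehicle (356 against 259.8 CPM) and 1.29 times in cisplatin (249.7 against 194 CPM). St18 was lower in mitotic cells, 0.741 times in vehicle and 0.770 times in cisplatin, and Nkx2-1 was lower at 0.850 and 0.785 times. Insm1 was lower in mitotic cells at 0.791 times in vehicle and 0.922 times in cisplatin. Foxa2 stood at 0.944 and 0.986 times and Prox1 at 0.859 and 1.06 times. With at least 3 UMIs for a class, Foxa2 stood at 0.852 and 0.879 times, close to Insm1 at 0.818 and 0.883 times. The mitotic class held 44.2% of vehicle and 46.6% of cisplatin thinned cells. Nfib was also higher in S cells than in cells of neither class, 1.28 times in vehicle and 1.1 times in cisplatin. For S cells Foxa2 stood at 1.09 and 1.18 times, Insm1 at 0.891 and 1.007 times and Nkx2-1 at 0.998 and 0.882 times. Prox1 stood at 0.871 and 0.98 times and St18 at 0.915 and 0.83 times in these cells.

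Clusters were found without the 6 factors and the listed genes of their pathways, and most clusters came from 1 library. Vehicle cells lay in cluster 1 (2174 cells without cell cycle genes in the lead), cluster 4 (599 cells with S-phase genes) and cluster 0 (633 cells with histone and mitotic genes). Cisplatin cells lay in cluster 7 (1848 cells without cell cycle genes in the lead), cluster 6 (394 cells, S phase), cluster 3 (858 cells, mitotic), and the delta-like clusters 9 and 10 (154 and 600 cells). Setting 1 against 7, 4 against 6 and 0 against 3, Insm1 was 1.90, 2.19 and 1.81 times as high in the cisplatin cluster. Nkx2-1 was 1.48, 1.41 and 1.45 times and Foxa2 1.25, 1.24 and 1.37 times as high. Nfib stood at 0.645, 0.581 and 0.773 times, Prox1 at 0.708, 0.717 and 0.640 times, and St18 at 0.597, 0.543 and 0.546 times its vehicle level. The direction of each factor was the same in all 3 pairs of clusters. The paired clusters were not matched in cell cycle genes. From cluster 0 to 3, 10 of 18 S-phase genes were called higher and 7 of 15 mitosis genes lower. Among all genes of this pair, 722 and 2127 of 11150 were. From cluster 1 to 7, 7 of 14 mitosis and 6 of 18 S-phase genes were called lower (2619 of 11951 genes). From cluster 4 to 6, 1 S-phase gene was called higher and 1 lower, and 3 and 2 mitosis genes (485 and 2255 of 10400 genes).

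Within the 2 clusters that held cells of both libraries in number, the differences were not all the same. Cluster 0 had 633 vehicle and 91 cisplatin cells. Insm1 was 1.36-fold higher in its cisplatin cells (643 against 472 CPM; 95% interval of the ratio 1.23 to 1.51), below the call. Foxa2 was lower there, at 113 against 198 CPM, a ratio of 0.572 (0.444 to 0.727), the opposite of its direction over all tumour-like cells, and Nkx2-1 stood at 252 against 283 CPM, a ratio of 0.892 (0.754 to 1.05). Nfib and St18 were lower at ratios of 0.677 and 0.734, and Prox1 stood at 0.861 (0.677 to 1.08).

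Cluster 8 (186 vehicle and 212 cisplatin barcodes), led by stress genes such as Ddit3, Trib3 and Nupr1 together with Dcn, a fibroblast marker, was left unnamed and outside the tumour-like cells. Its Insm1 was 1.27-fold higher in cisplatin (791 against 624 CPM; 1.16 to 1.38) and its Nkx2-1 1.26-fold higher. Its Foxa2 stood at 176 against 193 CPM, a ratio of 0.910 (0.768 to 1.08). St18 was lower, at 35.4 against 88.3 CPM, a ratio of 0.401 (0.285 to 0.557), beside 0.564 (0.531 to 0.599) over all tumour-like cells. Prox1 was lower, at 65.2 against 118 CPM, a ratio of 0.551 (0.425 to 0.710), beside 0.665 (0.633 to 0.698). For each gene these 2 intervals overlapped. Insm1 was thus higher and Nfib and St18 lower in both shared clusters, while the call for Insm1 was not reached in either and Foxa2 was not higher in either.

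**Figure D5:**
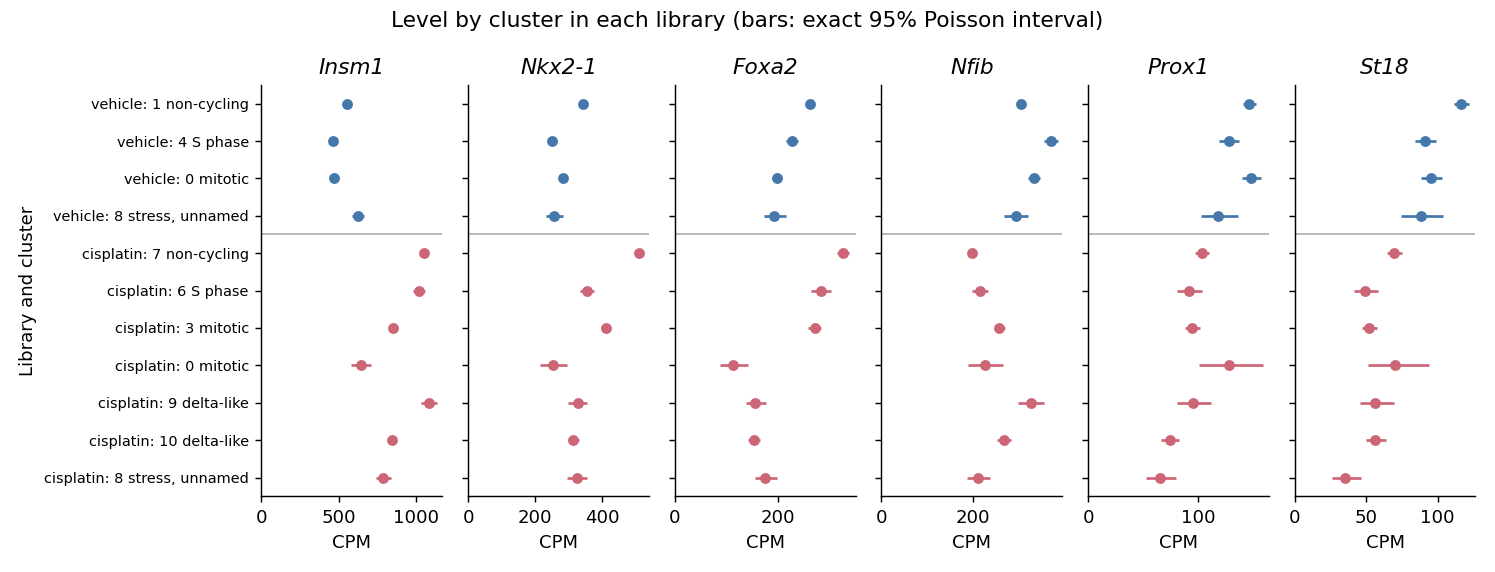
Level of each factor in CPM (horizontal axes from 0) by library and cluster, with exact 95% Poisson intervals, for clusters with more than 50 barcodes of a library. Insm1 in cisplatin runs from 643 CPM (cluster 0) to 1087 CPM (cluster 9), and Foxa2 in cisplatin from 113 CPM (cluster 0) to 326 CPM (cluster 7).

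The order of levels within cisplatin differed by factor. Insm1 was highest in clusters 9, 7 and 6 (1087, 1054 and 1020 CPM), whose intervals overlapped, and lowest in cluster 0. Nkx2-1 and Foxa2 were highest in cluster 7, at 509.9 and 326 CPM, above the others of these clusters beyond counting error. At a clustering resolution of 1.0, Foxa2 was instead highest, at 350 CPM, in a cluster of 85 cisplatin barcodes led by genes such as Ifit3 and Isg15. Nfib was highest in the delta-like cluster 9 at 326 CPM, and stood at 197 CPM in cluster 7, with an interval that overlapped those of clusters 0, 6 and 8. In vehicle the span was narrower: the highest cluster exceeded the lowest by 1.25-fold (Prox1) to 1.37-fold (Nkx2-1), over 4 clusters, against 1.66-fold (Nfib) to 2.88-fold (Foxa2) over 7 clusters in cisplatin.

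The delta-like cells of the cisplatin library were a class in which Foxa2 was low. Delta cells are the somatostatin cells of islets and gut, and Hhex is their defining factor. In the 754 delta-like cells Foxa2 stood at 155 CPM, against 295 CPM in the other 3246 cisplatin tumour-like cells, 1.91-fold lower (ratio 0.524, 0.489 to 0.561). Nkx2-1 stood at 317 against 444 CPM, a ratio of 0.714. Prox1 stood at 79.7 against 99.4 CPM and Nfib at 283 against 221 CPM. Insm1 (911 against 965 CPM) and St18 (56.4 against 60.7 CPM) differed by less than 1.1-fold. These are values of cells picked by cluster and carry no test. Without the delta-like clusters Nkx2-1 stood at a log2 ratio of 0.52, Foxa2 at 0.30 and Nfib at -0.55 between the libraries, and 1 factor was called higher and 1 lower, as Prox1 no longer reached 1.5-fold (5.47% and 20.7% of all measured genes).

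Of the relatives with the same DNA-binding domain, some went in the direction of their factor and some did not. Of 15 such genes, 9 were measured, and 2 of these were called higher in cisplatin and 3 lower, where 8.07% and 21.9% of all measured genes were called. Nfia was at 6.38 CPM (vehicle) and 19.6 CPM (cisplatin; 3.07-fold, from 194 and 532 UMIs), and Myt1l, a neuronal relative of St18, at 3.39 and 5.12 CPM (1.51-fold). Nfic, at 141 and 75.2 CPM, was 1.87-fold lower, and Foxa3 (1.97 and 0.958 CPM) and Prox2 (1.38 and 0.627 CPM) were lower from few UMIs. With the trend on transcript length removed, none of the 9 was called lower (7.55% of all genes).

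Foxa1, which shares much of its function with Foxa2 in the lung, stood at 265 and 289.8 CPM, a ratio of 1.096 beside 1.101 for Foxa2. Nfix stood at 27.9 and 31.0 CPM, Myt1 at 19.2 and 14.1 CPM, and Insm2 at 1.65 and 1.66 CPM, none past the call. Nkx2-2, Nkx2-3, Nkx2-4 and Nkx2-6 had no UMI in either library, which allows at most 3 UMIs of each in each library. Nkx2-5 had 1 UMI in each library, and Nkx2-9 had 1 and 3.

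The delta-like cells held much of the difference in some of these relatives. In cisplatin, Nfia stood at 50.2 CPM in the delta-like cells and 10.7 CPM in the others, Nfix at 70.1 and 19.5 CPM, and Myt1l at 18.1 and 1.33 CPM. Foxa1 went with Foxa2, at 171 and 325 CPM. Leaving out the delta-like clusters, Nfia was 1.72-fold higher in cisplatin, while Myt1l turned to 0.411 times and Nfix to 0.717 times its vehicle level. Nfic did not depend on these cells, at 74.97 CPM in them and 75.3 CPM in the others. Foxa3 and Prox2, from few UMIs, were still lower in cisplatin without the delta-like clusters, at 0.609 and 0.316 times their vehicle levels.

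Other factors of airway and lung endoderm were counted from a list of 30 genes, 24 of them measured. Of these 5 were called higher and 6 lower (20.8% and 25%, beside 8.07% and 21.9% of all measured genes). Their median log2 ratio was -0.29 against -0.17 for all genes. Tbx3 stood at 2.83 and 25.6 CPM and Etv5, a target of FGF signalling, at 1.65 and 8.44 CPM. Klf4 (104 and 42.5 CPM) and Klf5 (73.8 and 30.7 CPM), Krüppel-like factors of epithelia, were lower. Tbx3 stood at 107 CPM in the delta-like cells and 1.71 CPM in the other cisplatin cells, so without these clusters it was not higher (0.690 times). The list then had 3 genes called higher, where 5.47% of all measured genes were.

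Of 35 neuronal and neuroendocrine factors 23 were measured, with a median log2 ratio of -0.27 against -0.17 for all genes. Among the 23, 1 was called higher and 4 lower (4.35% and 17.4%, beside 8.07% and 21.9% of all measured genes). Lhx2, a LIM homeobox factor, stood at 5.13 and 1.36 CPM. Neurod4 stood at 0.329 and 1.73 CPM, Pou3f4 at 4.90 and 2.62 CPM and Npas3 at 2.40 and 1.25 CPM, all low levels. Without the delta-like clusters no gene of the list was called higher (5.47% of all measured genes).

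Genes of the corepressor complex with which INSM1 works were more often called lower than higher. Of 17 listed genes 16 were measured, none was called higher and 7 were called lower (43.8%, where 21.9% of all measured genes were lower), and the median log2 ratio was -0.46. Kdm1a, the LSD1 demethylase, stood at 76.0 and 42.3 CPM, Rcor3 at 43.9 and 23.4 CPM, Ctbp2 at 51.2 and 30.7 CPM and Gfi1, a repressor that like INSM1 carries a SNAG domain, at 47.2 and 24.7 CPM. Hdac1 (195 and 178 CPM) and Hdac2 (165 and 171 CPM), the deacetylases of the complex, were not past the call, and the pair was picked after its values were seen. With TMM scaling 4 of the 16 were called lower, where 14.0% of all genes were. With the transcript length trend removed 3 of the 16 were, where 7.55% of all genes were. Gfi1 stood at 2.93 CPM in the delta-like cells and 31.1 CPM in the other cisplatin cells.

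Genes known as targets of NKX2-1 and FOXA2 in the lung were counted from a list of 19, 11 of them measured. Of these 4 were called higher and 3 lower (36.4% and 27.3%, beside 8.07% and 21.9% of all measured genes). Their median log2 ratio was -0.48 against -0.17 for all genes. Sftpc, surfactant protein C of alveolar type 2 cells, stood at 20.9 and 168 CPM, Sftpa1 at 2.50 and 14.4 CPM, and Scgb1a1 of club cells at 175 and 464 CPM, while Scgb3a1 stood at 3.52 and 0.442 CPM. Sftpc and Scgb1a1 are also the genes that make up most of the summed alveolar type 2 and club cell markers, so those sums are no separate measurement. The 5 alveolar type 2 markers other than Sftpc and Sftpa1 were low in both libraries: Sftpb stood at 2.70 and 1.81 CPM, Sftpd at 0.461 and 0.590 CPM, and Slc34a2, Lamp3 and Napsa at or below 0.41 CPM. Whether such cells had a part in these values was not tested. Sftpc stood at 667 CPM in the delta-like cells and 22.1 CPM in the other cisplatin cells. Without the delta-like clusters it was 1.104 times its vehicle level, and 2 genes of the list were called higher (5.47% of all measured genes).

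Neuroendocrine effector genes, secretory and other genes of the programme that INSM1 takes part in, were more often called higher than lower. The list includes the 12 markers used to call clusters tumour-like. Of 30 listed genes 28 were measured, and their median log2 ratio was 0.27. Of the 28, 10 were called higher (35.7%, beside 8.07% of all measured genes) and 2 lower (7.14%, beside 21.9%). Pcsk2, a prohormone convertase, stood at 64.7 and 766 CPM, Scg2, a granin, at 183 and 1936 CPM, Cpe at 175 and 516 CPM and Resp18 at 1716 and 3913 CPM. Pcsk2 stood at 3138 CPM in the delta-like cells and 72.6 CPM in the others, and Scg2 at 7839 and 211 CPM. Without these clusters 4 genes of the list were called higher (5.47% of all measured genes) and the median was -0.05. Resp18 remained higher without them, at 2.34 times its vehicle level.

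Factors of gut and islet endocrine cells were mostly at 0 or a few UMIs: 5 of 16 were measured, with a median of 0.61. Of the 5, 3 were called higher and 1 lower, beside 8.07% and 21.9% of all measured genes. Hhex stood at 5.13 and 127 CPM and Isl1 at 1.81 and 50.8 CPM, and both were among the markers that named the delta-like clusters, so this is a description of that naming. Fev stood at 0.625 and 1.47 CPM. Hes1, the Notch target that represses the neuroendocrine programme, stood at 28.1 and 89.96 CPM and at 28.1 and 95.3 CPM without the delta-like clusters. Its r with Insm1 was 0.006 in vehicle and -0.002 in cisplatin.

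Cell cycle genes were counted last, beside 8.07% of all measured genes called higher and 21.9% lower. Of 15 mitosis genes 1 was called higher (Nusap1, 164 and 246 CPM) and 3 lower (Mki67, 236 and 92.6 CPM, and Cenpe and Cenpf, 107 and 60.3 CPM and 257 and 169 CPM), with a median of 0.10. Of 18 S-phase genes 1 was called higher (Rrm2, 102 and 158 CPM) and 3 lower (Clspn, 63.8 and 37.3 CPM, Chaf1b, 97.8 and 63.1 CPM, and Ung, 51.5 and 33.9 CPM), with a median of -0.16.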

How the data were processed

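Gene-by-barcode UMI counts (whole numbers, unnormalized) were deposited by the authors for 1 vehicle and 1 cisplatin library, and per the submitters' processing notes Cell Ranger 2.0.2 and mm10 were used, with no role given. Kit version, aligner settings and doublet removal are not given in the sources used here. Barcodes with fewer than 500 genes or over 10% mitochondrial UMIs were removed (54 and 36). A doublet caller marked 0.0272% and 0.142% of barcodes, too few to have worked, so none was removed.

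Both libraries were clustered together (scanpy 1.11.5; 10000 counts per cell, log, 2000 variable genes, 30 principal components, 15 neighbours, Leiden resolution 0.5), leaving out the 6 factors and the listed genes except the gut and islet list. A cluster was called tumour-like with at least 3 neuroendocrine markers at 100 CPM and 20 UMIs or more and no other cell type ahead among its leading genes. Several versions of this naming rule, differing in how leading genes were ranked and limited, were tried after seeing the data, and the limit of 100 CPM and 20 UMIs was kept because single low markers otherwise left clusters 1 and 7 unnamed, and with them most vehicle cells outside the tumour-like class. The 29 barcodes with at least 3 rare markers of another cell type were also removed after seeing the data. Neither choice touches the values over all kept or all deposited barcodes.

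CPM, log2 ratios (1 CPM added), exact 95% intervals and thinning to 3000 UMIs (a fixed random seed) were computed from the counts; the procedures were tested on simulated data. TMM factors came from edgeR 4.0.16 and median-of-ratios factors from DESeq2 1.42.0, on sums only. With 1 library per group no test was possible. Alternatives covered cells, depth, scaling, pseudocount, floor, length and the correlation measure. Of 28692 gene identifiers, 28339 matched GENCODE M21. Named genes were the 6 factors, their relatives, up to 4 genes of each list with the largest log2 ratio, the 3 genes most like each factor, and Hes1, Hhex and Isl1. Some genes that this rule takes are not reported here. The factors and lists were chosen with earlier results of these data known.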

Additional observations from a re-analysis of the deposited data

How the results depend on the processing

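No paired analysis was possible because each treatment has 1 library, and for the same reason no replicate could be left out. Of 108 recomputed log2 ratios of the 6 factors, 58 stayed within counting error and 50 moved beyond it, and none of Insm1, Prox1 and St18, the factors called over all tumour-like cells, turned its sign. Foxa2, not called there at 0.14, was called lower in cluster 0 of both libraries. Over all kept or all deposited barcodes, with 0 or 5 CPM added, or with the stress cluster, every log2 ratio stayed within counting error.

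TMM and median-of-ratios scaling gave the same values, 1.04 for Insm1, 0.59 for Nkx2-1, 0.30 for Foxa2, -0.31 for Nfib, -0.42 for Prox1 and -0.65 for St18, with 2 factors called higher and 1 lower, as relative to the all-gene median. Removing the transcript length trend gave 1.04 for Insm1, 0.55 for Nkx2-1, 0.03 for Nfib, -0.12 for Prox1 and -0.43 for St18, and removing the genomic span trend (chosen after seeing the data) gave -0.01 for Nfib, -0.30 for Prox1 and -0.36 for St18, both with 0 called lower. Without the delta-like clusters Nkx2-1 was 0.52, Foxa2 0.30 and Nfib -0.55, with 1 called lower (20.7% of all measured genes). A mitochondrial limit of 5% also left 1 called lower, where 2721 of 13165 genes were. Thinned cells gave -0.55 for Nfib and -0.71 for Prox1, and the mean of per-cell CPM -0.57 for Nfib. At 2-fold 0 were called higher and 0 lower, where 526 and 918 of all 13283 measured genes were.

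Cluster comparisons were added after seeing the data. Clusters 1 and 7 gave 0.93 for Insm1, 0.57 for Nkx2-1, 0.32 for Foxa2, -0.63 for Nfib and -0.49 for Prox1. Clusters 4 and 6 gave 1.13, 0.49, 0.31, -0.78 and -0.47 in the same order, and clusters 0 and 3 gave 0.54 for Nkx2-1, 0.45 for Foxa2 and -0.37 for Nfib. Cluster 0 of both libraries gave 0.45 for Insm1, -0.16 for Nkx2-1, -0.80 for Foxa2, -0.56 for Nfib, -0.21 for Prox1 and -0.44 for St18. There 0 were called higher and 1 lower, where 1139 and 3125 of 10043 genes were. Cluster 8 of both gave 0.34 for Insm1 and Nkx2-1, -0.13 for Foxa2, -0.85 for Prox1 and -1.29 for St18. Here 0 were called higher and 2 lower, where 988 and 1298 of 7482 genes were. The cause of these differences was not tested.

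The difference in the share of cells with a UMI, cisplatin minus vehicle in percentage points, depended on depth. Unthinned it was 2.73 for Insm1, 0.205 for Nkx2-1, -7.37 for Foxa2, -18.6 for Nfib, -21.7 for Prox1 and -23.5 for St18. At 2000 UMIs it was 16.7 for Insm1, -7.63 for Prox1 and -7.31 for St18, and at 5000 UMIs 7.98 for Insm1, 5.54 for Nkx2-1, -13.6 for Prox1 and -15.1 for St18. Without the delta-like clusters it was 12.2 for Nkx2-1 and 4.95 for Foxa2. The median r of the 15 vehicle pairs was 0.039 with analytic Pearson residuals and 0.111 over the pairs kept for noise correction, a limit on those pairs added because a value above 1 appeared for Prox1 with St18. The highest over the lowest cluster level was set against the counting error of its value at a resolution of 0.5 only. It moved beyond this for Nfib in cisplatin, to 1.434 at a resolution of 0.3. It also did for Nkx2-1 and St18 in vehicle, to 1.523 and 1.688 at 1.0, and stayed within it in the other 21 values. Ratios of mitotic to other cells with at least 3 UMIs for a class stayed within the counting error of the main ratios in all 12 values.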
